A study of Homo sapiens with 9 samples.

Results

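Insulin at either of 2 doses was compared, as a single treatment, with solvent in KGN cells, a line from a human granulosa cell tumour that keeps the FSH receptor and aromatase genes of the ovarian follicle. The comparison used all 9 libraries of the series, 6 with insulin and 3 with solvent, and 12697 of the 15983 genes in the count table, those with at least 10 counts in 3 or more libraries. The 6 insulin libraries were 3 at 0.5 µg/ml, called here the lower dose, and 3 at 1 µg/ml, called here the higher dose. All cells were labelled wild type, had been kept in medium with fetal bovine serum, were fasted for 12 h and were then exposed for 72 h, so every value is a level after 72 h of exposure and the solvent cells carry the same fasting step. KGN is 1 tumour line, and whether replicates are separate cultures is not in the labels, so every p-value rests on a spread between libraries that may be technical. Pooling the doses asks for changes that both doses share, and a gene that the doses moved in opposite directions adds to the spread within the insulin group.

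Insulin binds the insulin receptor and, less tightly, the IGF1 receptor, and both phosphorylate the adaptors IRS1 and IRS2, which recruit PI3 kinase and activate AKT. AKT drives FOXO factors out of the nucleus, which lowers transcription of genes such as IGFBP1, IRS2 and PDK4, and acts through mTOR on SREBP factors, glycolysis and ribosome production. In the follicle insulin is known to act beside FSH on granulosa cell growth and steroid production.

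Library totals ran from 18965722 to 20446405 counts, and 14386 to 14460 genes had at least 1 count in a library. The common biological coefficient of variation was 5.44%. Of 12 granulosa markers all 12 were tested, and their summed level was 394 to 434 CPM (counts scaled to a library of 1000000) with solvent and 399 to 432 CPM with insulin. The theca markers CYP17A1, INSL3 and LHCGR, the epithelial marker EPCAM, the endothelial marker CDH5 and the blood markers HBB and LYZ each had 10 or fewer counts over all libraries together. Other members of these lists were well expressed, and the summed level was 1755 to 1960 CPM for the epithelial list and 13072 to 14607 CPM for the fibroblast and smooth muscle list. Per length KRT18, an epithelial keratin gene, stood at 1172 ± 54 FPKM (SD, n = 9), COL1A1, a fibroblast collagen gene, at 1524 ± 94 FPKM, CD68, a macrophage gene, at 34.0 ± 2.1 FPKM and NR2F2, a theca gene, at 26.0 ± 1.6 FPKM.

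A single gene passed the test when both doses were pooled, and it fell with insulin. It was LOC102724200, which had 44, 19 and 46 counts in the solvent libraries and 3 to 12 counts in the insulin libraries, with a median of 9. All 6 insulin libraries lay below all 3 solvent libraries, and solvent replicate 2 lay between the other two and the insulin range. Its level was 0.425 CPM with insulin against 1.84 CPM with solvent, a log2 fold change of -2.09 ± 0.34 (SE; edgeR quasi-likelihood test, Benjamini-Hochberg adjusted p = 0.0457). The lower dose alone gave -2.23 and the higher dose alone -1.96 against the same 3 solvent libraries. Calls made up 0.00788% of the genes tested for lower levels and 0% for higher levels (0 genes by edgeR and 0 by DESeq2). Without an adjustment, edgeR gave p under 0.05 for 432 genes, 3.4% of those tested. DESeq2, run without the count filter on 15980 genes, gave it for 363.

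LOC102724200 lies on the minus strand of chromosome 21 at 5155774 to 5165464 on hg38 in the RefSeq table, where GENCODE 29 places the protein-coding gene FP565260.6. Its 3634-base transcript is covered in full by that of TRAPPC10, which lies at 44012319 to 44106552 on the plus strand of the same chromosome and encodes a subunit of the TRAPP complexes that tether vesicles at the Golgi. The transcripts matched over that length at 99.89% identity and differed at 4 positions, all between positions 2885 and 3277 of the LOC102724200 transcript. Its second exon, 195 bases of coding sequence at chr21:5159080-5159274 on the minus strand (hg38, GENCODE 29 transcript sequence), is shown because the same letters occur in TRAPPC10 and a read from it carries nothing that tells the genes apart.
LOC102724200 exon 2: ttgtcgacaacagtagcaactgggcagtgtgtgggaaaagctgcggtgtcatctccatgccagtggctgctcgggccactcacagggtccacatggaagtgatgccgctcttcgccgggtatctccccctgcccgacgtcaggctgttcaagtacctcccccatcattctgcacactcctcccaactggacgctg

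TRAPPC10 itself had 627, 783 and 793 counts with solvent and 690 to 828 with insulin, with a median of 763. These ranges overlap, and the log2 fold change was 0.05 ± 0.07 (SE). When the counts of both genes were added, the solvent libraries held 671, 802 and 839 and the insulin libraries 698 to 831. The summed log2 fold change was -0.00 ± 0.06 (SE; edgeR quasi-likelihood test, adjusted p = 0.999). LOC102724200 held at most 46 of the summed counts in a library, so the sum could not show its fall. How the authors' counting treated reads with more than 1 match is not given in the sources used here, and its part in the result was not tested.

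**Figure D1:**
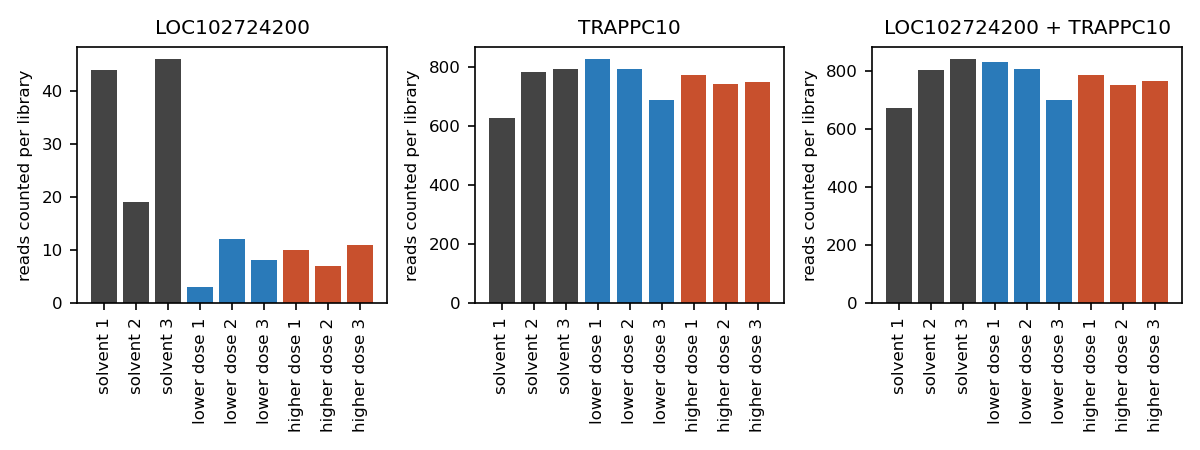
Reads counted in each of the 9 libraries for LOC102724200, for TRAPPC10 and for their sum (bars, linear axes from 0; grey solvent, blue lower dose, orange higher dose). LOC102724200 runs from 3 to 12 with insulin against 19 to 46 with solvent, while TRAPPC10 and the sum overlap between the groups.

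The call on LOC102724200 rested on few counts and did not survive the loss of most libraries. It was kept without solvent replicate 2, with an edgeR adjusted p of 0.00192. The adjusted p was 0.247 without solvent replicate 1, 0.409 without solvent replicate 3, 0.136, 0.0507 and 0.157 without lower dose replicates 1, 2 and 3, and 0.0649, 0.166 and 0.0629 without higher dose replicates 1, 2 and 3. The log2 fold change over these 9 fits ran from -2.41 to -1.89. limma-voom gave an adjusted p of 0.160, and a 3-group model that averages the doses gave 0.085 with edgeR.

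The largest fitted change in each direction was that of a copied gene, at -3.11 ± 0.78 (SE) for U2AF1L5 and 2.71 ± 0.93 for U2AF1 on the log2 scale, and neither passed the adjusted test. BOLA2B, which lies in a duplicated segment, had 5, 27 and 63 counts with solvent and 1 to 12 with insulin, a log2 fold change of -2.79 ± 0.57 (SE; edgeR adjusted p = 0.461, and 0.00703 without solvent replicate 1). U2AF1, which encodes a splicing factor that recognises the end of an intron, had 23, 19 and 29 counts with solvent and 19 to 540 with insulin, and its copy U2AF1L5 had 10, 343 and 11 with solvent and 8 to 29 with insulin. High counts stood in a few libraries: U2AF1 had 540 in lower dose replicate 1 and 196 and 124 in higher dose replicates 1 and 2, and U2AF1L5 had 343 in solvent replicate 2. Their sum ran from 33 to 362 with solvent and from 31 to 551 with insulin, and overlapped. For SRGAP2, a regulator of cell shape, the copy SRGAP2C had a log2 fold change of -0.29 ± 0.08 (SE) that did not pass the adjusted test, and SRGAP2 itself one of 0.03 ± 0.05. BOLA2B, U2AF1 and SRGAP2C were named after their values were seen.

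Pooling narrowed the error, and most genes were bounded tightly around no change. The median standard error of a log2 fold change was 0.068 with both doses pooled and 0.078 for either dose alone. The 95% interval lay wholly within a 1.25-fold change in either direction for 77.3% of genes, against 70.1% at the lower and 72.7% at the higher dose, and within 1.5-fold for 90.2%. Level set this bound: it held within 1.25-fold for 99.9% of genes over 50 CPM, 94.9% of those at 10 to 50 CPM, 29.1% at 2 to 10 CPM and 0% under 2 CPM, where a change of 1.5-fold was excluded for 10.9%. Changes in genes under 2 CPM were thus often not detectable at this depth. Of the 12697 genes 6492 had a log2 fold change above 0, and the median over all of them was 0.00.

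Across the whole profile the distance between solvent and insulin was close to the middle of that for all divisions of the same libraries. The share of the variance of log2 CPM between the groups was 12.4%, beside a median of 12.3% over the divisions, and 39 of the 84 ways to choose 3 of 9 libraries gave a share as large (exact permutation test, one-sided p = 0.464, where the smallest p the design allows is 0.0119). Neither dose alone had a gene past the threshold against solvent. edgeR gave p under 0.05 without an adjustment for 782 genes (6.16%) at the lower and 299 (2.35%) at the higher dose. DESeq2 called 0 genes at both, with 573 and 173 at p under 0.05. Dropping solvent replicate 1, 2 or 3 changed the edgeR count of the lower dose to 1329, 644 or 409. The count of the higher dose became 484, 198 or 383. These counts moved with the solvent library left out, so they are no measure of which dose had the larger response. Both comparisons share the 3 solvent libraries.

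None of the receptors and adaptors of insulin and IGF passed the test. INSR, the insulin receptor gene, was at 12.7, 13.4 and 15.3 CPM with solvent and 12.9 to 16.0 CPM with insulin, with a median of 14.5. The log2 fold change was 0.08 ± 0.09 (SE), with a 95% interval of -0.10 to 0.26. IGF1R, the gene of the IGF1 receptor, gave -0.06 ± 0.05 and the adaptor IRS1 0.08 ± 0.07. Per length, IGF1R stood at 4.97 ± 0.28 FPKM (SD, n = 9) and INSR at 1.52 ± 0.13 FPKM, a deposited unit that scales counts by gene length and library total. Of the 18 tested members of this list 5 were above 0, their median was -0.04 on the log2 scale, and 16 of 18 had an interval within 1.25-fold. That median was -0.01 at the lower dose and -0.03 at the higher dose. IGF2R, which clears IGF2 from the cell surface, had the smallest p of the list at a log2 fold change of -0.07 ± 0.04.

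Among 31 genes of PI3 kinase, AKT and mTOR signalling 14 were above 0, the median was -0.02 and none passed the test. Without an adjustment 2 had p under 0.05, both lower, beside 1.95% of all genes tested that were lower at that p and 1.46% that were higher. IPMK, an inositol phosphate kinase that can also make the lipid product of PI3 kinase, was at 8.67, 8.15 and 10.2 CPM with solvent and 5.92 to 8.27 CPM with insulin, with a median of 7.12. Its log2 fold change was -0.37 ± 0.12 (SE; edgeR adjusted p = 0.998), and the ranges overlapped slightly at the top of the insulin group. PIK3CA, the catalytic p110 alpha subunit, had -0.14 ± 0.06.

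None of the genes that FOXO factors activate and insulin normally represses passed the test. TXNIP, which binds thioredoxin and restrains glucose uptake, was at 1891, 2066 and 2161 CPM with solvent and 1794 to 2138 CPM with insulin, with a log2 fold change of -0.03 ± 0.06 (SE; 95% interval -0.15 to 0.08). PDK4, a kinase that shuts off pyruvate oxidation, gave 0.05 ± 0.13, and CCNG2, a cyclin that rises in resting cells, gave 0.03 ± 0.07. IGFBP1, a secreted protein that binds IGF, gave -0.01 ± 0.17 with an interval of -0.37 to 0.34, and FOXO1 and FOXO3 gave 0.01 ± 0.09 and -0.02 ± 0.05. Of the FOXO3 transcript 53.5% is shared with other annotations, the largest share being 26.2% with FOXO3B. Of 27 tested members 14 were above 0 and the median was 0.00.

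KLF15 stood apart in size within that list. It encodes a transcription factor of fasting metabolism that is known to fall with insulin in liver. It was at 1.22, 1.28 and 1.27 CPM with solvent and 1.79 to 2.75 CPM with insulin, with a median of 2.09. All 6 insulin libraries lay above all 3 solvent libraries, as for 0.764% of all genes tested. The log2 fold change was 0.80 ± 0.22 (SE; 95% interval 0.35 to 1.25), with 0.78 at the lower and 0.82 at the higher dose, and it did not pass the adjusted test (edgeR, adjusted p = 0.998). It stayed between 0.72 and 0.85 under all 20 other settings of the scaling, filter, model or libraries used. KLF15 was named for the smallest p of its list in these same libraries, and its groups did not overlap. Refits of those libraries could hardly change its direction, so this is no support for the change.

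Sterol and fatty acid genes were among the best bounded. SREBF2, the gene of the SREBP factor of sterol synthesis, was at 314, 332 and 345 CPM with solvent and 322 to 349 CPM with insulin, a log2 fold change of 0.03 ± 0.04 (SE; 95% interval -0.05 to 0.12). SREBF1, the gene of the SREBP factors of fatty acid synthesis, gave 0.04 ± 0.05. FASN, which builds palmitate, gave 0.05 ± 0.08 and SCD, which desaturates it, -0.05 ± 0.06, and the highest FASN level, 652 CPM, was that of lower dose replicate 1. Of 28 tested genes of SREBP control and cholesterol synthesis 19 were above 0 with a median of 0.01, and 27 of 28 intervals lay within 1.25-fold. That median was -0.02 at the lower dose and 0.05 at the higher dose. ACAT2, a thiolase at the first step of the sterol pathway, had the smallest p there, at 0.12 ± 0.05, although 69.7% of its transcript is shared with neighbouring genes such as SOD2 and TCP1. Of 18 fatty acid genes 10 were above 0.

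Glucose transport and glycolysis had 10 of 22 tested genes above 0 and a median of 0.00. By edgeR 0 of them had an unadjusted p under 0.05, beside 3.4% of all genes tested, a share that leaves few or none among 22. HK2, the hexokinase that traps glucose in growing cells, gave -0.02 ± 0.05 (SE), and SLC2A1, the basal glucose transporter gene, gave -0.01 ± 0.08. SLC2A4, the gene of the insulin-responsive transporter GLUT4, had 16 counts over all libraries together and was not tested.

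Immediate early genes and feedback inhibitors were measured long after any first pulse. EGR1, a zinc finger factor switched on by MAP kinase, was at 18.0, 27.5 and 23.0 CPM with solvent and 21.01 to 27.95 CPM with insulin, a log2 fold change of 0.11 ± 0.10 (SE). SPRY4, a feedback inhibitor of receptor tyrosine kinases, had 0.19 ± 0.08, and SOCS1, which blocks cytokine and insulin receptor signalling, had 0.35 ± 0.15. ZFP36, which destabilises inflammatory mRNAs, had -0.25 ± 0.11. None passed the adjusted test, and 23 of 34 immediate early genes and 3 of 8 SOCS genes were above 0.

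Lists of growth genes had more members above 0 than below, and their medians changed with the solvent library left out. No member passed the test. MYC, a driver of ribosome production, gave -0.03 ± 0.05 (SE), and CCND1, the cyclin that starts the cell cycle, gave 0.05 ± 0.06. Of 55 cytosolic ribosomal protein genes 44 were above 0, with a median of 0.03, and 3, RPS15 and RPS16 among them, were higher at p under 0.05 without an adjustment, beside 1.46% of all genes tested. That median was 0.01 without solvent replicate 2 and 0.06 without solvent replicate 1. Of 34 genes of DNA replication and S phase 29 were above 0, with a median of 0.07. That median was 0.01 without solvent replicate 3 and 0.16 without solvent replicate 1. The mean centred level of the S phase list fell from replicate 1 to replicate 3 in every group. It was 0.115, -0.07 and -0.16 in solvent replicates 1, 2 and 3. The lower dose had 0.138, -0.04 and -0.05 and the higher dose 0.170, -0.03 and -0.07, in the same order. The groups overlapped, although within each replicate number both insulin libraries lay above the solvent library. Whether the numbers pair the libraries is not settled. CHAF1B, a chromatin assembly subunit, had the smallest p of that list at 0.20 ± 0.09. Of 30 mitosis genes 22 were above 0 with a median of 0.02, which was -0.04 without solvent replicate 3. It was 0.05 at the lower dose and -0.01 at the higher dose.

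**Figure D2:**
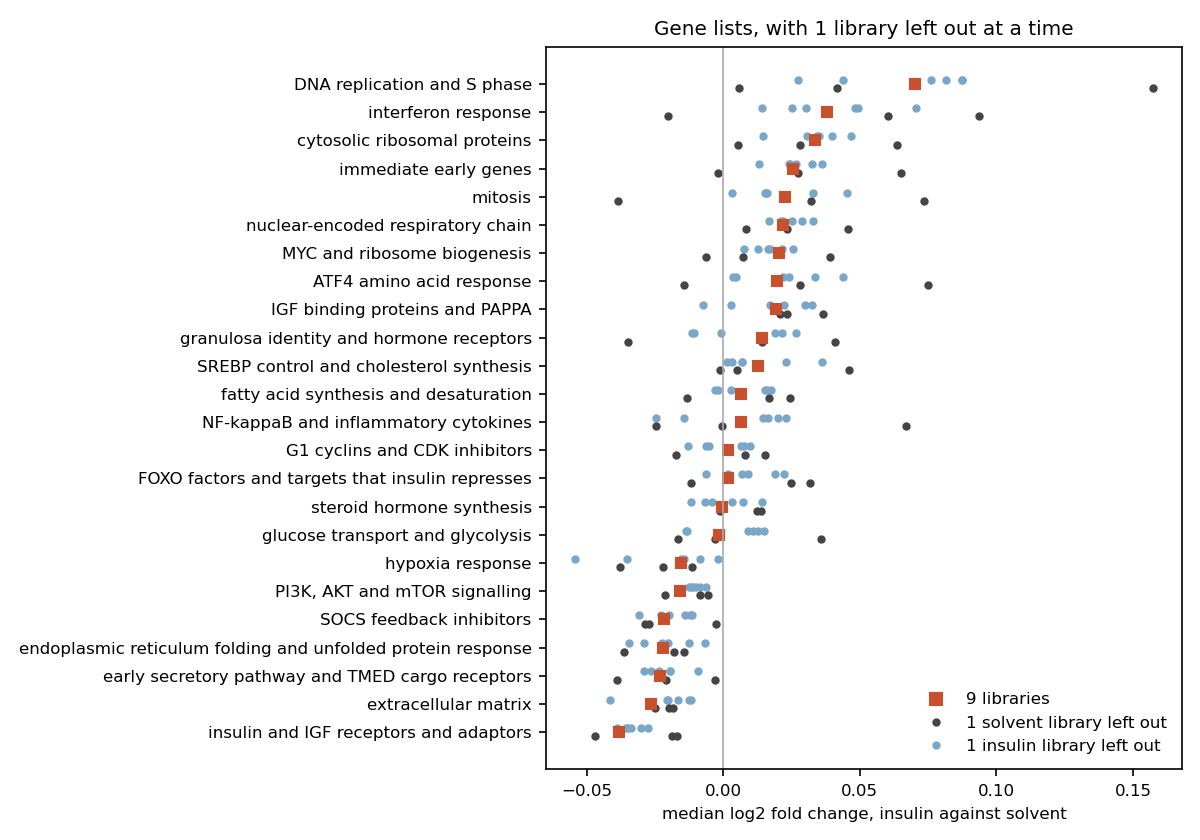
Median log2 fold change of insulin against solvent for 24 gene lists (orange squares, 9 libraries) and the same with 1 solvent library (dark points) or 1 insulin library (light blue points) left out. The medians run from -0.04 for receptors and adaptors to 0.07 for S phase, and S phase moves between 0.01 and 0.16 with the solvent library left out.

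No granulosa identity or steroid gene passed the test. FOXL2, the granulosa fate factor, gave 0.00 ± 0.07 (SE; 95% interval -0.15 to 0.15). FSHR, the FSH receptor gene, was at 15.2, 16.4 and 22.2 CPM with solvent and 16.1 to 21.4 CPM with insulin, and gave 0.02 ± 0.10. CYP19A1, the aromatase gene, gave -0.09 ± 0.12 and STAR, which feeds cholesterol to the mitochondria, gave 0.03 ± 0.09. INHA, the inhibin alpha gene, was low in all libraries, at 0.32, 0.30 and 0.58 CPM with solvent and 0.394 to 0.951 CPM with insulin, with a median of 0.838. Its log2 fold change was 0.95 ± 0.38 and did not pass the adjusted test (edgeR, adjusted p = 0.998). Of 24 tested steroid synthesis genes 12 were above 0 with a median of 0.00, and of 22 granulosa identity genes 13 were above 0.

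Lists of the secretory route and the matrix had most members below 0 with both doses pooled. The matrix median was 0.00 at the lower dose and -0.05 at the higher dose. The folding median was -0.01 and -0.04, and the early secretory median -0.03 and -0.01, in the same order. Of 28 genes of endoplasmic reticulum folding 4 were above 0, of 33 genes of the early secretory pathway 11, of 37 matrix genes 8 and of 26 hypoxia genes 5, with medians between -0.03 and -0.02, and no member passed the test. With 1 library left out the hypoxia median ran from -0.05 without lower dose replicate 2 to -0.00 without lower dose replicate 1, and it was 0.03 at the lower dose and -0.07 at the higher dose. The early secretory median ran from -0.04 without solvent replicate 1 to -0.00 without solvent replicate 3, the folding median from -0.04 without solvent replicate 3 to -0.01 without lower dose replicate 1, and the matrix median from -0.04 without lower dose replicate 1 to -0.01 without higher dose replicate 2. ERO1B, an oxidase that forms disulfide bonds in secreted proteins, was at 13.7, 12.4 and 13.2 CPM with solvent and 9.36 to 12.0 CPM with insulin, with a median of 11.2. All insulin libraries lay below all solvent libraries, as for 0.937% of all genes tested, and the log2 fold change was -0.26 ± 0.09 (SE). TMED5, a cargo receptor between the endoplasmic reticulum and the Golgi, was at 85.2, 90.5 and 88.1 CPM with solvent and 72.6 to 84.3 CPM with insulin, without overlap, and gave -0.16 ± 0.05. Of 42 nuclear-encoded respiratory chain genes 29 were above 0, and UQCRQ, a complex III subunit, had the smallest p at 0.14 ± 0.05. Of 35 interferon response genes 25 were above 0 with a median of 0.04, which was -0.02 without solvent replicate 3. It was 0.10 at the lower dose and -0.02 at the higher dose.

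Genes with textbook roles in insulin action or in granulosa cells were fixed as a list of 32, and all 32 were tested. Of these 18 were above 0. By edgeR 0 had p under 0.05 without an adjustment, beside 3.4% of all genes tested. The groups separated in 0, beside 0.764% of all genes tested that were higher without overlap and 0.937% that were lower. Among 32 genes such shares leave few or none, so these counts are no result about the list. The 95% interval lay within a 1.25-fold change for 28 of them and within 1.5-fold for 31. The exceptions at 1.25-fold were IGFBP1, EGR1, CYP19A1 and the cyclin gene CCND2, which was at or below 0.64 CPM in every library.

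**Figure D3:**
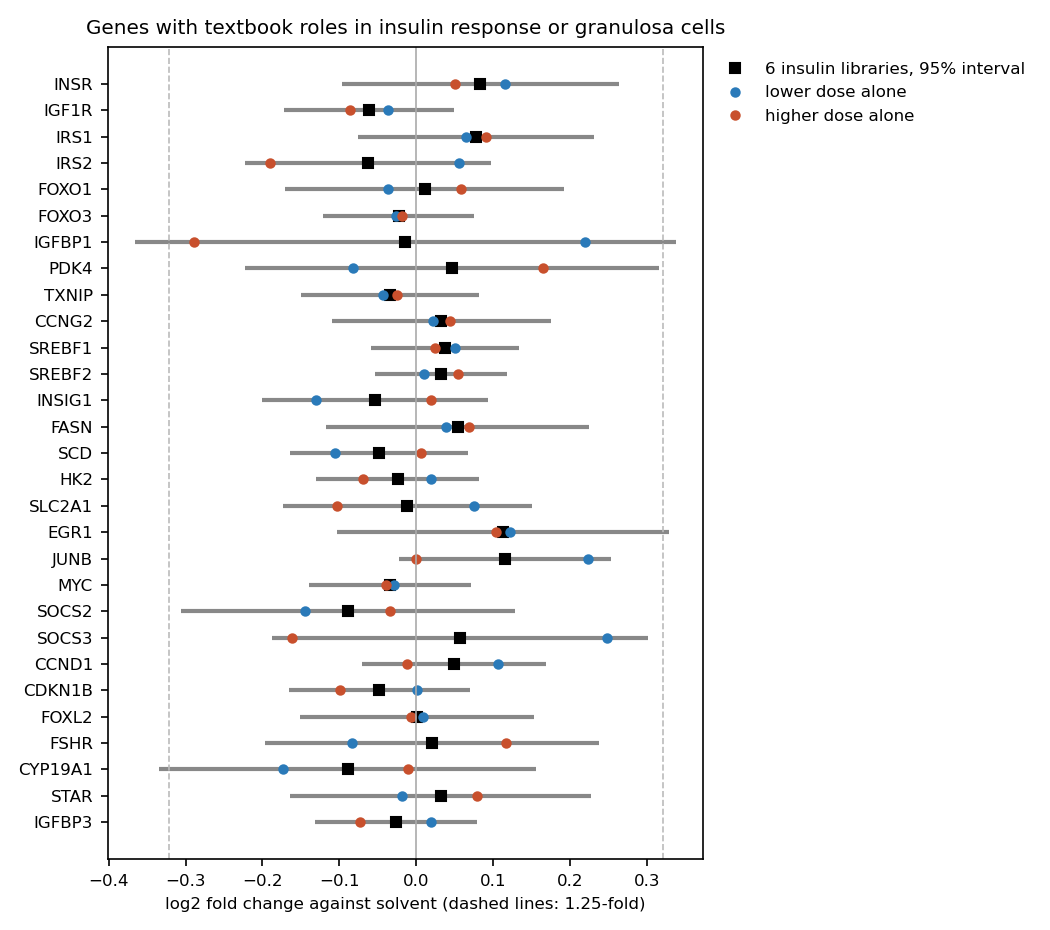
Log2 fold change against solvent of 29 genes with textbook roles in the response to insulin or in granulosa cells (black squares with 95% intervals, 6 insulin libraries against 3 solvent libraries; blue and orange points, each dose alone; dashed lines, 1.25-fold). Every interval shown crosses 0, CCND2 is left out for its low counts, and the doses stand apart for IRS2, IGFBP1, JUNB and SOCS3.

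For SOCS3, IRS2 and IGFBP1 the pooled value was near 0 and the fitted changes of the doses had opposite signs, although for each gene at least 1 dose overlapped solvent. SOCS3, a feedback inhibitor of insulin and cytokine receptors, was at 15.7, 16.0 and 14.2 CPM with solvent, at 19.2, 16.5 and 18.8 CPM at the lower dose and at 13.6, 11.6 and 15.8 CPM at the higher dose. All 3 lower dose libraries were above solvent and above all higher dose libraries. Against solvent the log2 fold changes were 0.25 ± 0.10 (SE) at the lower dose and -0.16 ± 0.11 at the higher dose, which overlapped solvent. The higher dose minus the lower dose was -0.41 ± 0.10. IRS2, the adaptor, was at 47.1, 51.5 and 41.7 CPM with solvent, at 49.0, 50.6 and 46.4 CPM at the lower dose and at 43.9, 38.6 and 40.5 CPM at the higher dose, a difference between doses of -0.25 ± 0.07. Against solvent IRS2 gave 0.06 ± 0.07 at the lower dose, where all libraries lay within the solvent range, and -0.19 ± 0.07 at the higher dose. IGFBP1 gave 0.22 ± 0.16 at the lower and -0.29 ± 0.17 at the higher dose. Its lower dose libraries, at 6.57 to 6.64 CPM, lay within the solvent range of 4.19 to 6.98 CPM. JUNB, an AP-1 factor, gave 0.22 at the lower dose and -0.00 at the higher, and 0.12 with both pooled. Of the 32 genes 6 had p under 0.05 between the doses without an adjustment, among them these 4 and SLC2A1, beside 5.65% of all genes tested. None passed the adjusted test between the doses, with adjusted p = 0.846 by edgeR for each of the 6. Over all genes 0% were called between the doses, 717 had p under 0.05 by edgeR, and DESeq2 called 0 with 487 at p under 0.05.

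Past the single call, the genes of smallest p whose groups did not overlap differed by small amounts, and none passed the adjusted test (edgeR, adjusted p = 0.998 for all 16). Above 2 CPM on average, the 8 higher and the 8 lower genes had absolute log2 fold changes between 0.11 and 0.41. Their selection used the pooled values, so these are given as a description.

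Of the genes that were higher with insulin, POLR2J, a subunit of RNA polymerase II, was at 19.7, 18.7 and 20.5 CPM with solvent and 22.2 to 26.9 CPM with insulin, with a median of 23.2 and a log2 fold change of 0.28 ± 0.07 (SE). Its copy POLR2J3 shares 39.5% of its transcript. MIEF1, an outer membrane protein that recruits the mitochondrial fission machinery, was at 22.5, 19.4 and 19.7 CPM with solvent and 22.8 to 24.9 CPM with insulin, at 0.23 ± 0.07. The lowest insulin library of MIEF1 was just above the highest solvent library. RPS15, a protein of the small ribosomal subunit, was at 298, 288 and 278 CPM with solvent and 308 to 326 CPM with insulin, at 0.13 ± 0.04. These 3 genes had all 6 insulin libraries above all 3 solvent libraries by the way they were chosen. DZIP1L, a protein of the ciliary base, CAMKK1, a kinase that activates calmodulin-dependent kinases and AMPK, and EMC10, a subunit of the complex that inserts membrane proteins, gave 0.24 ± 0.08, 0.19 ± 0.06 and 0.11 ± 0.04. HINT2, a mitochondrial nucleotide hydrolase, gave 0.20 ± 0.07, and its whole transcript is shared with other annotations, the largest share being 80.6% with AL133410.3.

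Of the genes that were lower, SLC30A7, a transporter that loads zinc into the Golgi, had the smallest p, at 40.6, 46.3 and 46.0 CPM with solvent and 35.6 to 38.9 CPM with insulin, with a median of 37.7. Its log2 fold change was -0.24 ± 0.06 (SE; 95% interval -0.35 to -0.12). TTBK2, the kinase that starts the growth of cilia, was at 80.6, 82.7 and 78.2 CPM with solvent and 68.9 to 76.3 CPM with insulin, at -0.18 ± 0.05. GABBR1, a subunit of the metabotropic GABA receptor, was at 39.6, 42.3 and 41.5 CPM with solvent and 31.4 to 39.0 CPM with insulin, at -0.23 ± 0.06. Its insulin libraries were spread widely, while those of TMEM65, a mitochondrial membrane protein, lay between 26.8 and 29.02 CPM, at -0.22 ± 0.06. PPM1E, a phosphatase of calmodulin-dependent kinases, was at 6.71, 6.08 and 6.04 CPM with solvent and 4.31 to 5.28 CPM with insulin, at -0.41 ± 0.12. METTL23, a methyltransferase, gave -0.26 ± 0.07, PCMTD1, which belongs to a family of protein repair methyltransferases, -0.18 ± 0.06 and CHIC1 -0.30 ± 0.09. Between the doses 0 of the 16 genes passed even without an adjustment by edgeR, and PCMTD1 came closest. Choice by small pooled p favours a small spread between the doses, so this is no separate result. All 16 kept their sign under all 20 other settings. For groups chosen without overlap, leaving out a library can hardly change the sign, so this is no support for the changes.

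**Figure D4:**
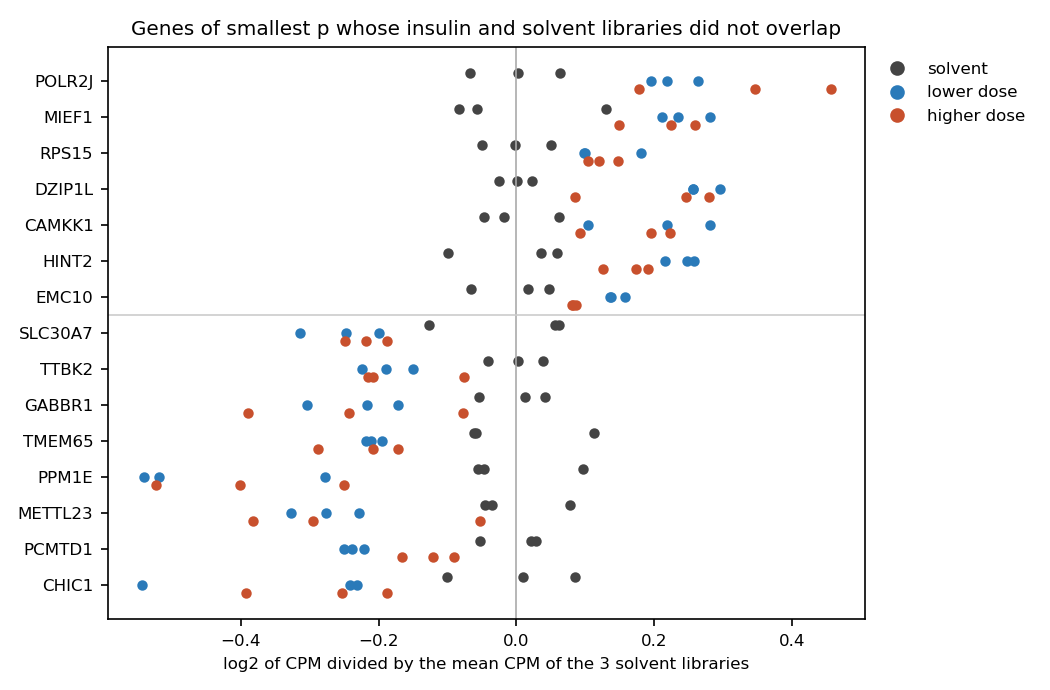
Level of 15 genes in each library, as log2 of CPM over the mean CPM of the 3 solvent libraries (grey solvent, blue lower dose, orange higher dose), for genes of smallest p whose groups did not overlap. The doses lie on the same side for every gene shown, as the choice of genes without overlap requires, with pooled log2 fold changes between 0.11 and 0.41 in absolute size.

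The direction of small changes went with the base composition of the transcripts. Over the 12442 genes with a GENCODE 29 transcript the Spearman correlation of the pooled log2 fold change with GC content was 0.355, a description across genes, which are not independent replicates. The same value was 0.450 for the lower dose and 0.119 for the higher dose against the shared solvent libraries. The 97 genes whose insulin libraries all lay above solvent had a median GC content of 56.6%, the 119 whose insulin libraries all lay below had 40.2%, and all genes tested had 48.4%. The lower genes were also longer, with a median of 5564 bases against 2912 for the higher genes and 4113 for all.

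A pair of libraries stood out on the same measure. The mean centred log2 level of the 25% of genes richest in GC minus that of the 25% poorest was 0.171 in lower dose replicate 1 and -0.09 in solvent replicate 3, against -0.03 to 0.02 in the other 7. The correlation with GC content was 0.198 without lower dose replicate 1 and 0.221 without solvent replicate 3. After the GC trend of each library was removed, an analysis chosen after seeing the data, the correlation was 0.0045 and no gene was called (edgeR, 362 genes at p under 0.05 without an adjustment), with LOC102724200 at a log2 fold change of -2.07 and an adjusted p of 0.0526. There were then 90 higher and 89 lower genes without overlap, of which 61 and 57 were among the 97 and 119 above, and their median GC contents were 51.9% and 50.6%. With the trend removed the log2 fold change was -0.18 for SLC30A7, -0.12 for PCMTD1, 0.09 for RPS15 and 0.77 for KLF15, each smaller in size than before. Of the 16 genes chosen without overlap only GABBR1, at -0.25, and METTL23, at -0.27, were larger in size than before.

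**Figure D5:**
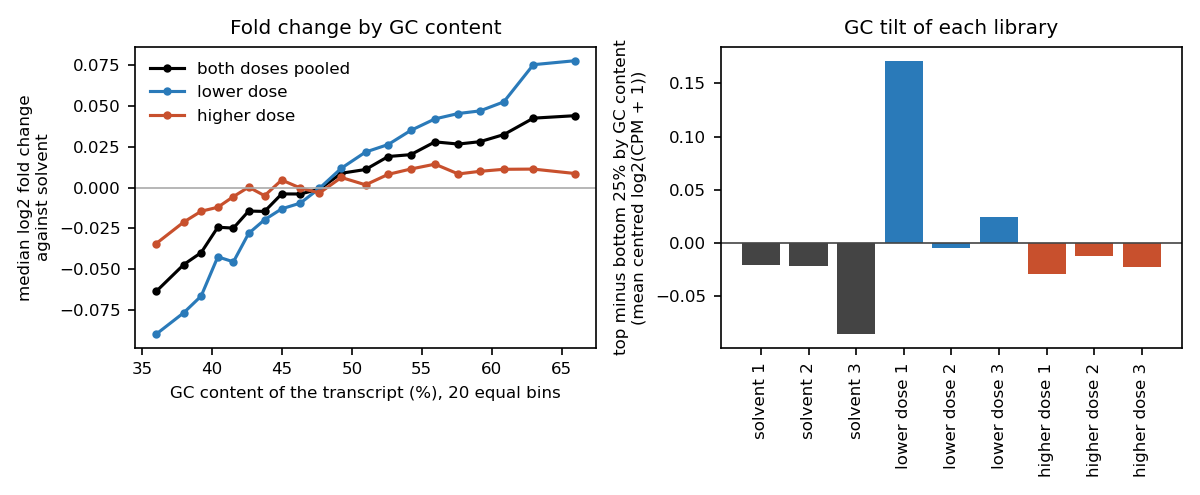
Left, median log2 fold change against solvent in 20 equal bins of transcript GC content, for both doses pooled, the lower dose and the higher dose. Right, mean centred log2(CPM + 1) of the 25% of genes richest in GC minus the 25% poorest in each library; lower dose replicate 1 stands at 0.171 and solvent replicate 3 at -0.09.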

How the data were processed

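RNA of 9 KGN libraries was extracted with TRIzol and prepared with a VAHTS kit, per the labels. The authors deposited whole-number counts per gene and FPKM values. Per the submitters' processing notes, Trimmomatic, HTSeq and DESeq were used with build hg38; of the aligner, annotation and strand setting nothing was given. The deposited FPKM values are rescaled counts, since the gene length they imply varied by at most 3.94e-09 of itself between libraries (11053 genes, each at 50 or more counts throughout). They were used only to compare levels between genes.

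Counts were scaled by TMM and fitted with edgeR 4.0.16 (R 4.3.3) as 2 groups over 9 libraries, with genes of at least 10 counts in 3 libraries. The quasi-likelihood F-test was two-sided, with Benjamini-Hochberg adjustment over 12697 genes and a threshold of 0.05. Each dose and the difference between doses came from a 3-group model of the same libraries. CPM in the text are TMM-scaled, and log2 CPM used a prior count of 2. Between replicates of a group, chi-square per degree of freedom was 2.07 to 7.33 in the 9 pairs, and no library was merged with another. A count of 0 allows up to 3 counts, or 0.158 CPM, in the smallest library, for counting error only. Without molecular identifiers reads are not independent molecules.

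Named genes were those called, the gene of smallest p, up to 8 genes a direction of smallest p with a mean of at least 2 CPM and no overlap, 32 core genes, and the gene of smallest p in each of 24 gene lists and 6 marker lists (77 genes); the values of a few of them are not reported here. The members and lists were chosen with earlier results of these data known. Shared sequence was searched with BLAST 2.17.0 in GENCODE 29 transcripts, in blocks of at least 100 bases at 98% identity or more. Alternatives were RLE and upper-quartile scaling, DESeq2 1.42.0, limma-voom 3.58.1, other filters and models, and leaving out each library. DESeq2 was run without the count filter throughout, so its counts of genes come from a larger set than those of edgeR.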

Additional observations from a re-analysis of the deposited data

Results flagged for a closer look

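Among the 6 insulin libraries a single library lay far from the rest for 3 of the 77 named genes, where chance alone gives about 1 in 20. DZIP1L was at 13.5 CPM in higher dose replicate 2 and at 15.05 to 15.58 CPM in the other 5. INHA was at 0.394 CPM in lower dose replicate 3 against 0.745 to 0.951 CPM. PTCH1, the Hedgehog receptor gene and a theca marker here, was at 5.39 CPM in lower dose replicate 2 against 7.09 to 7.94 CPM.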

How the results depend on the processing

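The count of called genes, 1 in the pooled comparison, was also 1 under RLE and upper-quartile scaling, DESeq2, the older edgeR dispersion method, no count filter and the filterByExpr filter, and LOC102724200 was the gene called in each of these. It was 0 with limma-voom, 0 with a filter of 1 CPM in 3 libraries, which removes LOC102724200, and 0 in the 3-group model. It was also 0 with near-identical copies summed and 0 with the GC trend removed, both chosen after seeing the data. Summing the copies leaves LOC102724200 no value of its own, and for limma-voom, the 3-group model and the GC trend the cause was not tested. Leaving out 1 library gave 0 to 1 called genes, which was BOLA2B without solvent replicate 1, LOC102724200 without solvent replicate 2 and CD99-2 without higher dose replicate 1. Leaving out 1 library gave 0 to 2 genes between the doses (NDRG1 and TRIM22 without lower dose replicate 1), 0 to 1 at the lower dose (LOC102724200 without solvent replicate 2) and 0 at the higher dose. With the replicate number as a block 3 genes were called in the pooled comparison (BOLA2B, LOC102724200 and U2AF1L5), 2 at the lower dose (BOLA2B and LOC107987373), 0 at the higher dose and 0 between the doses. Libraries of the same number correlated at -0.0018 to 0.156 in their deviations from the group means and those of different number at -0.11 to 0.056. The highest value was that of replicate 3 of solvent and of the higher dose. These overlapping ranges do not settle whether the numbers pair the libraries. The main model leaves the numbers out, so an effect shared by a number counts there as spread within a group. The variance share between the groups was 12.4% with a prior count of 0.5 (exact permutation p = 0.464) and 11.6% over genes of at least 10 CPM (p = 0.631). Of the 77 named genes 51 kept their sign under every alternative run and 26 changed it in at least 1. All that changed sign, except KRT7, were among the 32 core genes, which were chosen by role. The genes outside that list were chosen by small p in these data, so their sign was likely to hold. Of the 24 list medians 9 kept their sign and 15 did not. Depth limited genes under 2 CPM, where no interval lay within 1.25-fold.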

Other observations

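Of the 426 genes with a pooled fold change past 1.25 in either direction, 365 were under 2 CPM and 60 at 2 to 10 CPM. The 1 gene over 50 CPM was listed as CD99-2 in the deposited table, with 288, 2356 and 2856 counts in the solvent libraries and 500, 111, 239, 2830, 81 and 143 in the insulin libraries, lower dose first. Its libraries split into high and low values in both groups, the ranges overlap, and the log2 fold change was -1.48 ± 0.65 (SE; edgeR adjusted p = 0.998). CBSL, the near-identical copy of the cystathionine beta-synthase gene CBS, had 7, 4 and 188 counts with solvent and 1 to 233 with insulin.

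None of the markers of other cell types passed the test. PTPRC, the gene of the pan-leukocyte protein CD45, was at 1.37, 1.28 and 1.80 CPM with solvent and 0.98 to 3.16 CPM with insulin, with a log2 fold change of 0.38 ± 0.28 (SE). VWF, an endothelial gene, gave 0.32 ± 0.26, CNN1, a smooth muscle gene, 0.29 ± 0.15 and KRT7, an epithelial keratin gene, 0.10 ± 0.09. Of the fibroblast and smooth muscle list 10 of 12 members were tested and 5 of these were above 0. Of the epithelial list 7 of 10 were tested and 5 were above 0.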
